A study of Mus musculus with 14 samples.

Results

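Csf1r, C1qa, C1qb, Tyrobp, Fcer1g, Mrc1, Cd68, Aif1, Laptm5 and Ptprc are genes of macrophages or of leukocytes in general, and their signals were followed through the embryonic and adult small intestine of the mouse. Every probe set annotated to exactly 1 of these symbols was taken. This gave 16 probe sets for the 10 genes, out of 20393 probe sets and 12394 genes with 1 symbol. Csf1r, C1qb and Laptm5 had 3 probe sets each and the other 7 genes had 1 each.

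Total RNA was measured on single-colour arrays in 4 groups of samples. E12 endoderm, the inner layer that forms the gut epithelium, and E12 mesenchyme, the layer around it that gives rise to muscle and connective tissue, were dissected apart from fetal intestine treated with collagenase. Each layer had 3 arrays, replicates 2, 3 and 4, made from pools of 10 to 12 fetuses, and 1 further array from a pool of 35 fetuses. Villi (replicates 12, 41 and V275) and crypts (replicates 12, 21 and 41) were isolated from the small intestine of C57BL/6 mice aged 12 weeks. The labels give no treatment, no engineered allele and no sorting of leukocytes for any group, and no strain for the fetuses. In such bulk samples, fewer cells of a type and less RNA per cell cannot be told apart.

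The values are log2 signals made with RMA, in 2 tables with the same 22690 probe sets. The second table holds the 6 E12 arrays of the smaller pools, and the first holds the 6 adult arrays and the E12 pair of 35 fetuses. A signal is called near background here where it does not exceed the 30th percentile of its table, which was 4.74 in the second table and 5.78 in the first. Epithelial and stromal marker genes were measured to check the tissue labels. Epcam, an epithelial adhesion gene, stood at 11.96 ± 0.14 in E12 endoderm and 6.41 ± 0.50 in E12 mesenchyme (SD, n = 3 each), and Col1a1, a collagen gene, at 5.16 ± 0.25 in endoderm and 11.63 ± 0.23 in mesenchyme. The mean of 7 epithelial markers was 11.87 to 12.24 in villi and 11.27 to 11.83 in crypts, and that of 8 stromal markers was 6.20 to 6.52 in villi and 6.10 to 6.24 in crypts.

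Macrophages settle in the gut from embryonic life onward, where they engulf dying cells and microbes. Their survival depends on CSF1 and IL-34, the ligands of the receptor encoded by Csf1r. They signal through adaptor proteins with immunoreceptor tyrosine-based activation motifs (ITAMs), to which Tyrobp and Fcer1g belong, and they are a main source of the complement protein C1q. Ptprc encodes CD45, a tyrosine phosphatase on the surface of leukocytes in general, so that its signal can come from lymphocytes as well as from macrophages. The transcription factor PU.1, encoded by Spi1, drives many myeloid genes from sites around the letters GAGGAA.

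The promoters of the members are shown because these genes tend to be read as a group, and the search asks only how often the PU.1 core letters lie close to their starts. RefSeq promoter windows on GRCm38.p6, from 250 bases before to 50 bases after a start, were at hand for 7 of the 10 genes (Aif1, C1qb, Cd68, Fcer1g, Laptm5, Mrc1 and Ptprc). GAGGAA, searched on both strands, occurred in the windows of 6 of these 7 genes, all but Fcer1g, and in those of 31.3% of 27025 genes. TATAAA, also searched on both strands, occurred for Laptm5 and Ptprc, 2 of 7, and for 15.7% of all genes. A match to letters is a description and not a bound site. In the stretches of 100 bases below, capitals mark GAGGAA or its reverse complement TTCCTC. All run 5′ to 3′ on the strand of the gene. They cover the 100 bases just before the start, except that of Ptprc, which covers positions -200 to -101. C1qb is at chr4:136886201-136886300 (minus strand), Fcer1g at chr1:171234350-171234449 (minus strand) and Mrc1 at chr2:14229314-14229413 (plus strand). Aif1 is at chr17:35176053-35176152 (minus strand), Laptm5 at chr4:130913216-130913315 (plus strand) and Ptprc at chr1:138175406-138175505 (minus strand).
C1qb: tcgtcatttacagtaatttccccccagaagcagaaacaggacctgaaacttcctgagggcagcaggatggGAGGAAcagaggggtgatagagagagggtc
Fcer1g: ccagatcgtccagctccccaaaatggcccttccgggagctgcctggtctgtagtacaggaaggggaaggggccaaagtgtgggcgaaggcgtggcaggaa
Mrc1: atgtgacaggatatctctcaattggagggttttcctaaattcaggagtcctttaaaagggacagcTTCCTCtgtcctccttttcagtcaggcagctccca
Aif1: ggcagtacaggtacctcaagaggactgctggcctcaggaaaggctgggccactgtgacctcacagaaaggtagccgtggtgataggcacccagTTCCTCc
Laptm5: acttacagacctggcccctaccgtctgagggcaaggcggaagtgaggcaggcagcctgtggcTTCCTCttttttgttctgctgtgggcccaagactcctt
Ptprc: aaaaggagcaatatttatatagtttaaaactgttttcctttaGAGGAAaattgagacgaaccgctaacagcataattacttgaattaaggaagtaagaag
Counting the base before the start as -1, the match began at -30 in C1qb, -35 in Mrc1, -38 in Laptm5, -7 in Aif1 and -158 in Ptprc. Mrc1 had further matches at -180 and -167, and Cd68 had matches at -225 and 30.

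Between the E12 layers, 6 of the 10 genes were called lower in endoderm. Csf1r was 7.26-fold lower in endoderm, Fcer1g 1.77-fold and C1qb 1.35-fold, each by the probe set that was brightest on average. The order of these folds depends on that choice. The other Csf1r probe sets gave 2.27-fold and 1.43-fold, and C1qb 1417063_at, near background in endoderm, gave at least 2.75-fold. C1qa, Mrc1 and Tyrobp were near background in all 3 endoderm arrays, so that their folds are lower bounds, taken against the 30th percentile of the table. Tyrobp was at least 2.29-fold lower in endoderm, C1qa at least 1.91-fold and Mrc1 at least 1.73-fold. These 6 genes passed the test among the 7 members that passed the filter on dim genes, and limma called 0 members higher in endoderm, at an adjusted or an unadjusted p under 0.05. C1qa, Mrc1 and Tyrobp passed that filter only through the mesenchyme arrays. Their direction was thereby fixed, and the counts without the filter are given below. Of all 9442 genes tested, 25.4% were called lower in endoderm and 27.7% higher. The test was limma with Benjamini-Hochberg adjustment over all genes, called at an adjusted p under 0.05, on the 3 arrays of each layer in the second table. Cd68, Aif1 and Ptprc did not exceed the 30th percentile in at least 3 arrays and were left out by the filter. Without the filter, 8 of 10 members were called lower in endoderm and 0 higher, where 20.3% of 12394 genes were lower and 22.0% higher. Their median difference was -0.72, against 0.037 over all genes. Taking each probe set by itself without the filter, 13 of 16 were lower and 0 higher, where 17.6% of 20393 probe sets were lower and 18.5% higher. For 14 of the 16 the arrays of the layers did not overlap, all of them lower in endoderm. Over all probe sets, 23.0% were lower without overlap and 26.1% higher.

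**Figure D1:**
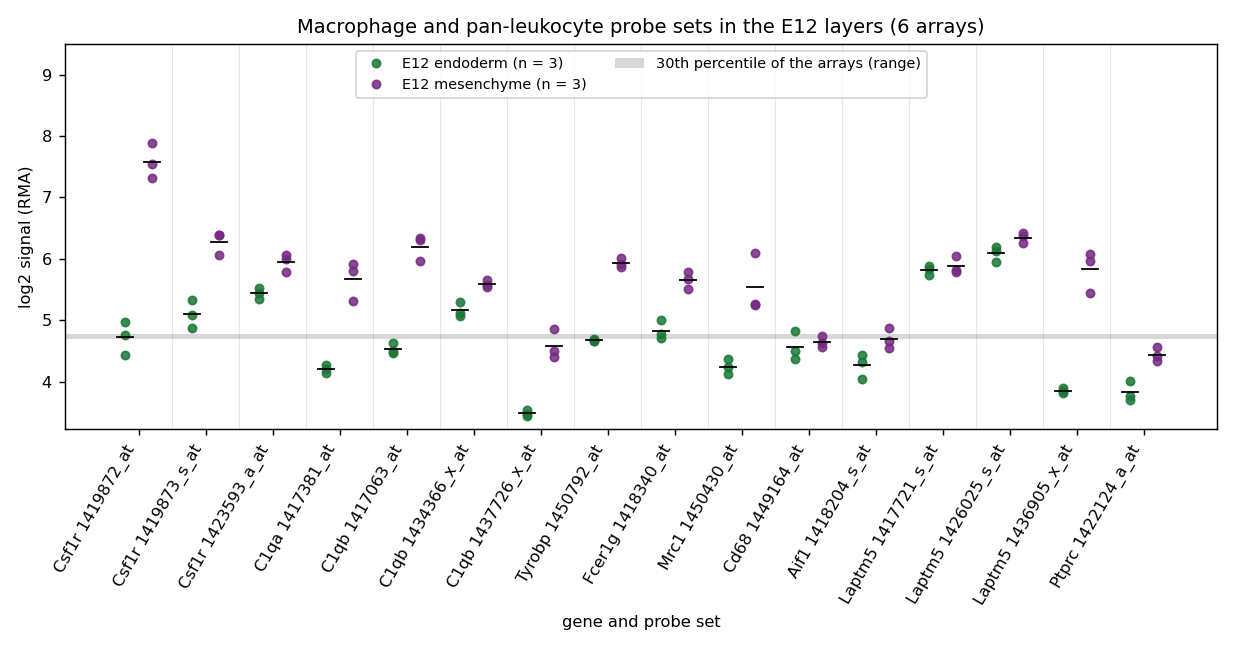
Log2 RMA signal (vertical axis) of each of the 16 probe sets (horizontal axis) on the arrays of the second table, 6 in all, with E12 endoderm in green and E12 mesenchyme in purple. Points are arrays, bars are group means and the grey band is the range of the arrays' 30th percentiles; for 8 of the 16 probe sets (C1qa, Tyrobp, Mrc1, Aif1, Ptprc, C1qb 1417063_at and 1437726_x_at, and Laptm5 1436905_x_at) all endoderm points lie below the band, and only Cd68 and Laptm5 1417721_s_at have overlapping layers.

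Csf1r, the receptor gene, is described first. Its brightest probe set 1419872_at read 4.44, 4.76 and 4.97 in E12 endoderm replicates 2, 3 and 4, against 7.88, 7.32 and 7.55 in E12 mesenchyme replicates 2, 3 and 4. All endoderm arrays were far below all mesenchyme arrays, and endoderm replicate 2 was near background. The difference was -2.86 ± 0.18 (SE, limma adjusted p = 2.63e-06), the 269th lowest of the 9442 genes. The other probe sets of Csf1r gave smaller differences in the same direction. Probe set 1419873_s_at read 5.33, 5.09 and 4.88 in endoderm and 6.39, 6.06 and 6.39 in mesenchyme (-1.18, adjusted p = 0.000551 over all probe sets). Probe set 1423593_a_at read 5.34, 5.53 and 5.44 in endoderm and 5.99, 5.79 and 6.07 in mesenchyme (-0.51, adjusted p = 0.00643). With the median of the probe sets in place of the brightest, the Csf1r difference was -1.15 (adjusted p = 0.0002, the highest over the alternatives, which began at 1.16e-06), smaller than those of C1qa, Mrc1 and Tyrobp below.

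C1qa and C1qb encode chains of C1q, the protein that starts the classical complement pathway. C1qa read 4.20, 4.27 and 4.14 in endoderm, all near background, against 5.80, 5.31 and 5.92 in mesenchyme, a difference of -1.47 ± 0.16 (limma adjusted p = 7.6e-05). The layers did not overlap. C1qb was represented in the test by 1434366_x_at, a probe set type prone to cross-hybridization, which read 5.12, 5.07 and 5.30 in endoderm and 5.58, 5.54 and 5.66 in mesenchyme. That gave -0.43 ± 0.095 (limma adjusted p = 0.00532). The C1qb probe set 1417063_at gave a wider gap, with 4.49, 4.46 and 4.63 in endoderm and 6.34, 6.30 and 5.96 in mesenchyme (-1.67, adjusted p = 3.05e-05 over all probe sets). The dimmest C1qb probe set, 1437726_x_at, read 3.44, 3.54 and 3.47 in endoderm and 4.49, 4.85 and 4.40 in mesenchyme (-1.10, adjusted p = 0.00039). The size of the C1qb difference therefore depended on the probe set, while its direction did not. Without the probe set types prone to cross-hybridization C1qb stood at -1.67 (adjusted p = 1.03e-05, within a range of 1.03e-05 to 0.029 over the alternatives).

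Both adaptor genes were lower in endoderm. Tyrobp, whose product DAP12 carries an ITAM, read 4.69, 4.66 and 4.66 in endoderm, against 5.87, 5.92 and 6.01 in mesenchyme. The arrays of a layer lay close together, all endoderm arrays were near background and the layers did not overlap, with a difference of -1.26 ± 0.083 (limma adjusted p = 3.93e-06). Fcer1g, the common gamma chain of Fc receptors, read 4.78, 5.0 and 4.71 in endoderm, against 5.79, 5.67 and 5.51 in mesenchyme. No endoderm array reached a mesenchyme array, and the difference was -0.83 ± 0.11 (limma adjusted p = 0.000398).

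Mrc1, the mannose receptor gene of tissue macrophages that some endothelial cells also use, read 4.24, 4.37 and 4.12 in endoderm, against 6.10, 5.26 and 5.24 in mesenchyme. Mesenchyme replicate 2 stood above the other mesenchyme arrays, and all endoderm arrays were near background. The difference was -1.29 ± 0.22 (limma adjusted p = 0.00136). Cd68, a lysosomal membrane glycoprotein gene, read 4.37, 4.49 and 4.83 in endoderm and 4.56, 4.62 and 4.74 in mesenchyme. The layers overlapped, and all arrays but endoderm replicate 4 were near background, with a difference of -0.077 ± 0.13 (adjusted p = 0.679 without the filter), and the sign turned to 0.020 without endoderm replicate 2 (adjusted p = 0.914; 0.174 to 0.917 over the alternatives).

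Aif1, which encodes the calcium-binding protein IBA1 of macrophages and microglia, read 4.43, 4.32 and 4.04 in endoderm and 4.88, 4.66 and 4.55 in mesenchyme. The layers did not overlap, but only mesenchyme replicate 2 rose above background. Its difference of -0.43 ± 0.13 had an adjusted p of 0.0259 without the filter. This call was lost without mesenchyme replicate 2 (adjusted p = 0.0892), mesenchyme replicate 3 (0.0594) or endoderm replicate 4 (0.0864), with a range of 0.00685 to 0.0892 over the alternatives.

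Ptprc, the pan-leukocyte gene of CD45, read 4.01, 3.77 and 3.70 in endoderm and 4.41, 4.34 and 4.57 in mesenchyme. All 6 arrays were near background and the layers did not overlap, with a difference of -0.61 ± 0.11 (limma adjusted p = 0.00203 without the filter). Laptm5, a lysosomal transmembrane protein gene of haematopoietic cells, was represented by 1426025_s_at, which read 6.20, 6.12 and 5.95 in endoderm and 6.37, 6.25 and 6.42 in mesenchyme. The layers just missed each other, and the difference of -0.26 ± 0.10 was not called (limma adjusted p = 0.0604). It passed without endoderm replicate 2 (0.0272) and with all 8 E12 arrays (0.0384), within a range of 0.0272 to 0.306 over the alternatives. The Laptm5 probe set 1417721_s_at read 5.84, 5.89 and 5.73 in endoderm and 5.79, 5.82 and 6.05 in mesenchyme and overlapped (-0.067, adjusted p = 0.661 over all probe sets). In contrast, 1436905_x_at read 3.89, 3.85 and 3.82 in endoderm and 6.08, 5.97 and 5.45 in mesenchyme (-1.98, adjusted p = 5.98e-05). The 3 Laptm5 probe sets thus disagreed in size.

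The pools of 35 fetuses gave a separate look at the same layers, with 1 array each and therefore no test. Of the 16 probe sets, 15 were lower in endoderm by any amount, where 46.3% of all probe sets were, and 8 were lower by at least 0.5 on the log2 scale, where 14.0% were. Mrc1 read 5.60 in endoderm and 7.22 in mesenchyme (-1.62), and C1qb 1417063_at read 4.60 in endoderm and 6.09 in mesenchyme (-1.49). Csf1r 1419872_at read 7.77 in endoderm and 8.74 in mesenchyme (-0.96), and the endoderm array was above background. C1qa differed by -0.75, Tyrobp by -0.79, Fcer1g by -0.53, Ptprc by -0.35, Aif1 by -0.33 and Cd68 by -0.29. C1qb 1434366_x_at was the probe set that was not lower in endoderm (0.012).

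**Figure D2:**
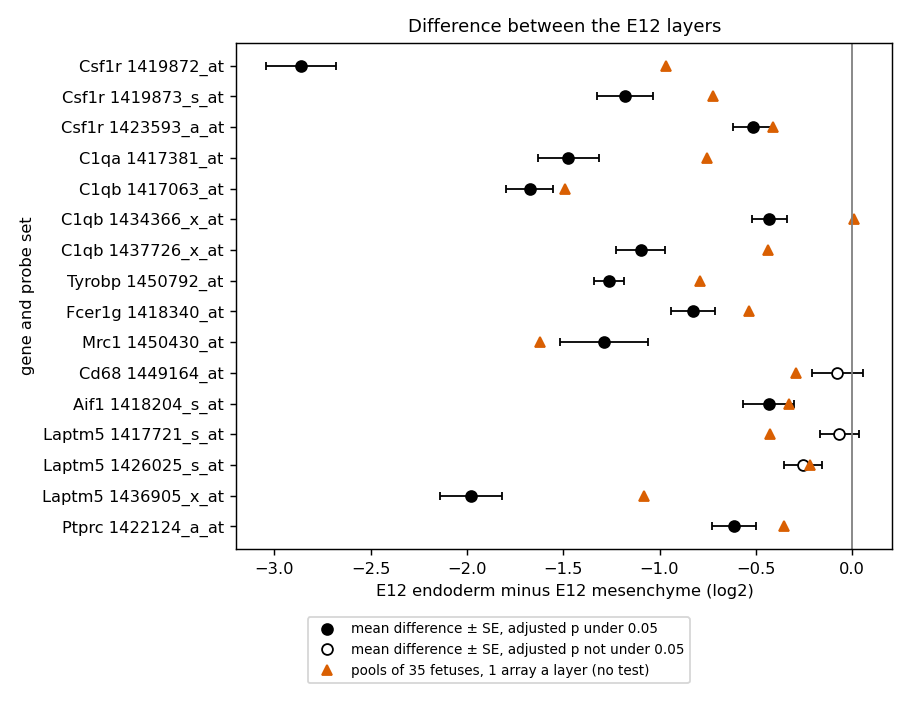
Log2 difference between E12 endoderm and E12 mesenchyme (horizontal axis) for each of the 16 probe sets (vertical axis). Circles with SE bars are the means of 3 arrays a layer, filled where the adjusted p over all probe sets was under 0.05, and triangles are the 35-fetus arrays; 15 triangles and all circles lie left of 0, with Csf1r 1419872_at farthest at -2.86.

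Related genes were examined in lists, whose members were counted among the genes tested. Of 11 macrophage surface and scavenger genes, 5 were lower in endoderm and 1 higher, where 25.4% and 27.7% of all genes were, with a median of 0.037 against 0.030 over all genes. The lower calls numbered 3 without endoderm replicate 3 or 4 or mesenchyme replicate 2 or 4, and the higher call was lost without mesenchyme replicate 3 or 4. Pf4, a chemokine gene of platelets and macrophages, fell by 1.60, and Stab1, a scavenger receptor gene, fell by 1.14. Of 5 complement and Fc receptor genes, 2 fell in endoderm, the third C1q chain gene C1qc (-1.40 ± 0.12, limma adjusted p = 1.91e-05) and the Fc receptor gene Fcgr3 (-0.62), and the list had a median of -0.20. Of 8 haematopoietic cytoskeleton and adhesion genes, 4 fell and 1 rose, with a median of -0.35. Arhgdib, a gene of blood cells, fell by 2.52 and Coro1a, an actin-binding protein gene, by 1.95. C1qc (4.23 ± 0.049, SD, n = 3) and Coro1a (4.31 ± 0.14) were near background in endoderm. These 2 genes passed the filter only through the mesenchyme arrays, so that their direction was fixed.

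Other lists did not follow the members. Of 7 genes of the CSF1 axis and myeloid regulators, 1 rose and 1 fell, with a median of -0.14, where 27.7% of all genes rose and 25.4% fell. Cebpa, a transcription factor gene of myeloid cells that liver and fat cells also use, was 2.89 higher in endoderm, and Cebpb, a related gene, was lower by 0.88 on the log2 scale. Of 7 ITAM and receptor signalling genes, 3 rose in endoderm and 0 fell, with a median of 0.18. They were led by Blnk, an adaptor gene known from B cells (3.58), and Syk, the kinase that binds phosphorylated ITAMs (0.57). With the replicate block 2 of the 3 calls were left, since Plcg2, a phospholipase gene, was not called (adjusted p = 0.0657). Without mesenchyme replicate 4 there was 1 call, and without endoderm replicate 3 there was 1 call lower in endoderm. Syk was not called without mesenchyme replicate 4 (adjusted p = 0.0611, with a range of 0.00466 to 0.0611 over the alternatives).

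Markers of other cell types moved with the members between the layers. All 8 endothelial genes tested fell in endoderm, where 25.4% of all genes were lower and 27.7% higher. Their median was -2.99, and their mean was 4.54 to 4.63 in endoderm and 7.58 to 7.70 in mesenchyme. Of these, 5 of 8 were near background in every endoderm array and 0 in every mesenchyme array. Those 5 could pass the filter only through the mesenchyme arrays, so that their direction was fixed. All 7 stromal genes tested fell, and the mean of the 8 measured was 5.73 to 6.23 in endoderm and 10.54 to 10.66 in mesenchyme. Of 6 erythroid genes tested, 5 fell, among them the embryonic globin genes Hba-x (-6.28) and Hbb-y (-5.28), and the mean of the 8 measured was 5.08 to 5.26 in endoderm and 7.29 to 7.43 in mesenchyme. All 7 epithelial genes rose in endoderm, of which 1 was near background in every mesenchyme array and could pass the filter only through endoderm. The mean of the 10 macrophage and leukocyte genes was 4.64 to 4.68 in endoderm and 5.49 to 5.72 in mesenchyme. The part of these other cells in the members' differences was not tested. T cell markers were near background in every array for 9 of 15 genes in endoderm and 10 of 15 in mesenchyme, and B and plasma cell markers for 5 of 6 in endoderm and 6 of 6 in mesenchyme.

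Villi were set against crypts to see which of these genes differ between the absorptive and the proliferative compartment of the adult mucosa. Ptprc was 3.43-fold higher in villi and Tyrobp 1.62-fold higher, whereas Csf1r was 1.49-fold lower in villi. Of the 7 members that passed the filter, these 2 rose and 1 fell, and 4 did not pass the test. All 3 calls were lost with the replicate number as a block. Crypt replicate 21 and villus replicate V275 share their number with no other array. The block therefore compared only replicates 12 and 41 of each group. Over all 9962 genes tested, 16.9% were called higher in villi and 15.0% lower. C1qb, Cd68 and Aif1 were left out by the filter. Without it the same 2 of 10 members rose and the same 1 fell, where 13.6% of all genes rose and 12.4% fell, and the median difference was 0.11 over the members and 0.0049 over all genes. Taking each probe set by itself without the filter, 3 of 16 rose, where 12.4% of all probe sets did, and 1 fell, where 11.9% did. For 5 of the 16 the groups did not overlap, 4 of them higher in villi, where 21.2% of all probe sets were higher without overlap and 21.1% lower. The members' shares of calls were near those over all genes.

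**Figure D3:**
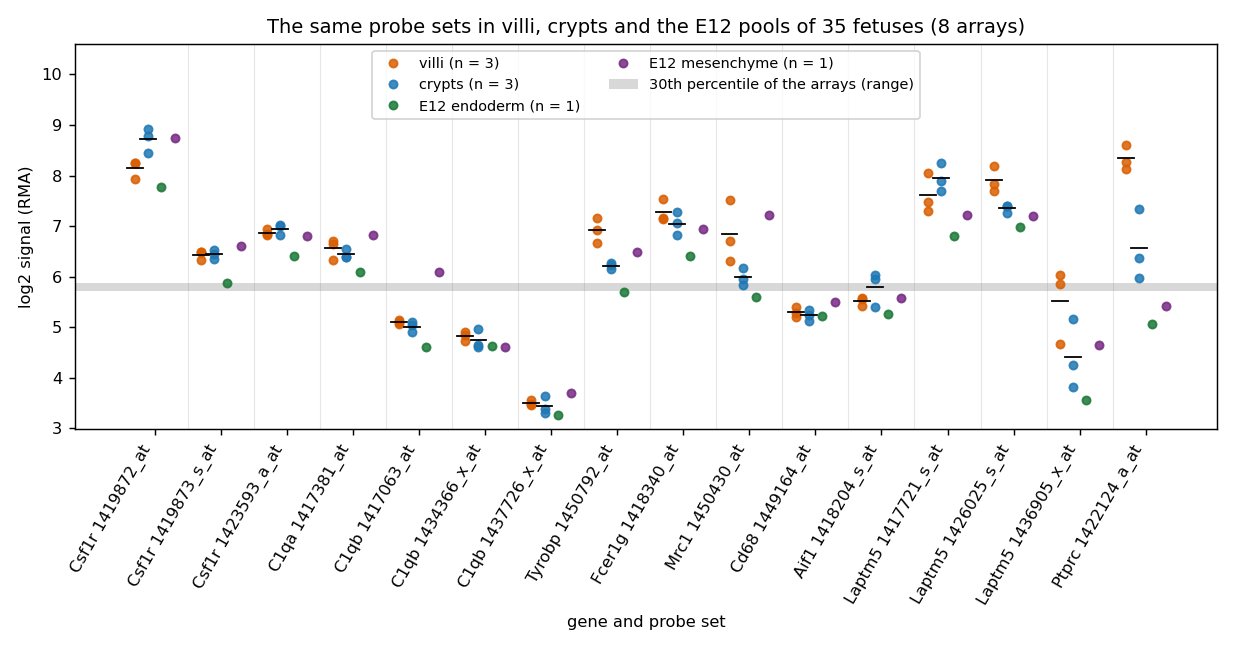
Log2 RMA signal (vertical axis) of the 16 probe sets (horizontal axis) on the 8 arrays of the first table: villi in orange, crypts in blue, and the E12 endoderm (green) and E12 mesenchyme (purple) pools of 35 fetuses. Points are arrays, bars are means of 3 arrays and the grey band is the range of the arrays' 30th percentiles; the Ptprc points of villi, from 8.14 to 8.60, stand above those of all other samples.

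Ptprc, the CD45 gene, read 8.14, 8.28 and 8.60 in villus replicates 12, 41 and V275, against 5.98, 6.36 and 7.34 in crypt replicates 12, 21 and 41. The villus arrays were close together and all above the crypt arrays, which were spread over a wider range with replicate 41 highest. The difference was 1.78 ± 0.33 (limma adjusted p = 0.0062), the 440th highest of 9962. With the replicate number as a block it was 1.55 and missed the threshold (adjusted p = 0.0539), in a range of 0.00197 to 0.0539 over the alternatives.

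Laptm5, the other gene found in leukocytes of most kinds, gave a mixed result. Its brightest probe set, 1417721_s_at, read 7.49, 7.30 and 8.05 in villi and 8.25, 7.89 and 7.69 in crypts. The groups overlapped, and the difference of -0.33 ± 0.24 was not called (limma adjusted p = 0.329). Probe set 1426025_s_at read 7.69, 7.84 and 8.18 in villi and 7.40, 7.41 and 7.26 in crypts, with no overlap (0.55 ± 0.15, adjusted p = 0.0398 over all probe sets). Probe set 1436905_x_at read 4.67, 6.04 and 5.85 in villi and 3.82, 4.25 and 5.16 in crypts (1.11 ± 0.45, adjusted p = 0.124). The median of the probe sets therefore gave a difference of opposite sign, 0.25 (adjusted p = 0.385; 0.104 to 0.644 over the alternatives).

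Tyrobp read 6.93, 6.66 and 7.15 in villi, against 6.24, 6.15 and 6.26 in crypts. Every villus array exceeded every crypt array, and the difference was 0.70 ± 0.16 (limma adjusted p = 0.014). The call was lost without crypt replicate 21 (adjusted p = 0.0618) and with the replicate block (0.196), within a range of 0.00685 to 0.196 over the alternatives. Fcer1g read 7.15, 7.16 and 7.53 in villi and 7.05, 7.28 and 6.82 in crypts, which overlapped (0.23 ± 0.18, limma adjusted p = 0.383).

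Csf1r was lower in villi by its brightest probe set alone. Probe set 1419872_at read 8.25, 7.94 and 8.24 in villi, against 8.92, 8.78 and 8.44 in crypts. The groups did not overlap, and the difference was -0.57 ± 0.18 (limma adjusted p = 0.0415). Probe set 1419873_s_at read 6.49, 6.48 and 6.33 in villi and 6.45, 6.53 and 6.36 in crypts (-0.010, adjusted p = 0.962 over all probe sets), and 1423593_a_at read 6.93, 6.85 and 6.82 in villi and 7.01, 7.02 and 6.83 in crypts (-0.084, adjusted p = 0.647). Both overlapped. The call also ended with a trended and robust prior (0.0553), with the replicate block (0.16), and when leaving out villus replicate 12 (0.0586), 41 (0.103) or V275 (0.0724) or crypt replicate 12 (0.124) or 21 (0.135), in a range of 0.0247 to 0.651 over the alternatives.

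Mrc1 read 6.30, 7.53 and 6.71 in villi, against 6.18, 5.96 and 5.84 in crypts. The villus arrays were all higher but spread widely, with replicate 41 at the top, and the difference of 0.86 ± 0.30 was not called (limma adjusted p = 0.0618). Without villus replicate 12 it was 1.13 and passed (adjusted p = 0.0172; 0.0172 to 0.23 over the alternatives). C1qa read 6.33, 6.65 and 6.70 in villi and 6.54, 6.40 and 6.38 in crypts, overlapping groups that differed by 0.12 ± 0.15 (limma adjusted p = 0.6).

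C1qb, Cd68 and Aif1 lay near background in villi and nearly so in crypts. C1qb 1417063_at read 5.15, 5.06 and 5.11 in villi and 5.04, 5.10 and 4.91 in crypts (0.092, adjusted p = 0.613 without the filter), and its other probe sets were dimmer. Cd68 read 5.41, 5.28 and 5.21 in villi and 5.24, 5.34 and 5.13 in crypts (0.063, adjusted p = 0.754 without the filter). These genes overlapped between the groups on all their probe sets. Aif1 read 5.58, 5.41 and 5.55 in villi and 5.95, 6.04 and 5.41 in crypts, where replicates 12 and 21 rose above background. Its difference was -0.28 ± 0.18 (adjusted p = 0.313 without the filter), and it passed at -0.48 without crypt replicate 41 (0.0434; 0.0434 to 0.703 over the alternatives).

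**Figure D4:**
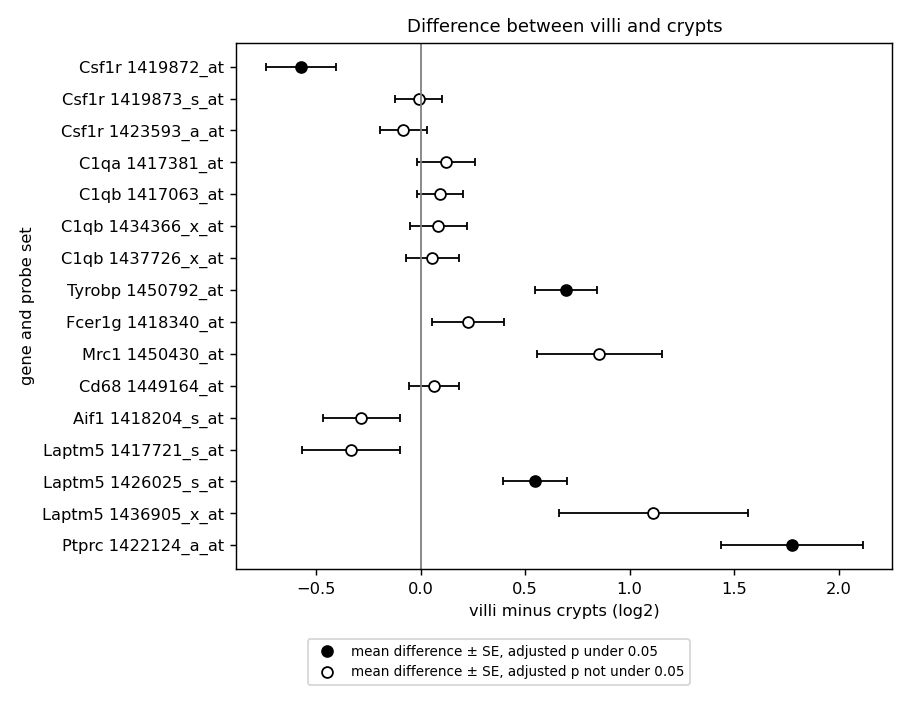
Log2 difference between villi and crypts (horizontal axis) for each of the 16 probe sets (vertical axis), as means of 3 arrays a group with SE bars. Filled circles had an adjusted p over all probe sets under 0.05: Ptprc, Tyrobp and Laptm5 1426025_s_at to the right of 0 and Csf1r 1419872_at to the left.

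The per-array difference between Ptprc and the brightest Csf1r probe set is given as a description. Ptprc minus Csf1r was -0.11, 0.34 and 0.36 in villus replicates 12, 41 and V275, and -2.94, -2.42 and -1.10 in crypt replicates 12, 21 and 41. All villus values lay above all crypt values, which the separate values of these genes already fix, since their groups did not overlap in opposite directions. Taken by themselves, Csf1r 1419873_s_at and 1423593_a_at overlapped between villi and crypts, while Ptprc alone separated the groups.

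T cell markers moved with Ptprc and Tyrobp. Of 13 T cell and intraepithelial lymphocyte genes tested, 11 rose in villi and 0 fell, where 16.9% of all genes rose and 15.0% fell. Their median difference was 1.39, against -0.00089 over all genes. The higher calls numbered 9 to 10 when leaving out each array. With the replicate block, limma did not call Cd247 (adjusted p = 0.35), Cd3e (0.203) or Cd7 (0.115). Gzma, a granzyme gene, stood at 11.22 ± 0.67 in villi and 6.87 ± 0.18 in crypts (SD, n = 3 each), and Ccl5, a chemokine gene, at 10.97 ± 0.68 in villi and 7.39 ± 0.25 in crypts. The mean of the 15 measured genes was 7.78, 7.99 and 8.52 in villus replicates 12, 41 and V275, and 6.60, 6.44 and 6.39 in crypt replicates 12, 21 and 41. Villus replicate V275 was highest for both this mean and Ptprc, while crypt replicate 41, the crypt array with the most Ptprc signal, had the lowest T cell mean. In every array of a group, 1 of 15 T cell markers was near background in villi and 5 of 15 in crypts. A marker that was dim in every crypt array could pass the filter only through villi. The part of T cells in the Ptprc and Tyrobp differences was not tested. The mean of the 10 macrophage and leukocyte genes was 6.67 to 6.89 in villi and 6.42 to 6.54 in crypts. Over the 9 genes other than Ptprc it was 6.51 to 6.70 in villi and 6.32 to 6.60 in crypts, which overlapped.

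Of 12 macrophage surface and scavenger genes, 3 rose in villi and 0 fell, where 16.9% of all genes rose and 15.0% fell, with a median of 0.12. The mean of the 17 measured genes was 6.378 to 6.391 in villi and 6.067 to 6.109 in crypts. Mertk, a receptor for the uptake of dying cells, rose by 1.99 and Stab1 by 1.69. Of 6 complement and Fc receptor genes, 1 rose, the complement component gene C2 (1.32), which was not called when villus replicate V275 (adjusted p = 0.0577) or crypt replicate 12 (0.0709) was left out, in a range of 0.00418 to 0.0709 over the alternatives. Of 10 genes of the CSF1 axis and myeloid regulators, 0 were called by limma (1 at an unadjusted p under 0.05), and the largest difference was that of Irf8, a transcription factor gene of monocytes and dendritic cells (0.58, adjusted p = 0.16). Irf8 passed without villus replicate 12 (0.0337; 0.0337 to 0.42 over the alternatives).

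Among 9 ITAM and receptor signalling genes, 2 rose and 1 fell, with a median of 0.21, where 16.9% of all genes rose and 15.0% fell. All 3 calls were lost with the replicate block. Both higher calls were lost without crypt replicate 21, and 1 of them was left without crypt replicate 12 or 41 or when villus replicate 12 or V275 was left out. Ptpn6, the gene of the phosphatase SHP-1 that restrains ITAM signals, rose by 0.57, and Blnk had a difference of -1.04. The Ptpn6 call ended without crypt replicate 21 (adjusted p = 0.0517), without the probe set types prone to cross-hybridization (0.0822) and with the replicate block (0.189; 0.00873 to 0.189 over the alternatives), and the Blnk call ended with the block (0.0629; 0.00403 to 0.0629). Of 16 haematopoietic cytoskeleton and adhesion genes, 5 rose in villi and 0 fell, with a median of 0.59. All 5 calls were lost with the replicate block, and the calls numbered 2 without crypt replicate 12, 1 without crypt replicate 21 and up to 7 without another array. Cd48, a surface gene of leukocytes, rose by 1.10 and Rac2, a GTPase gene of blood cells, by 1.07. Cd48 was not called without crypt replicate 12 (0.0696) or 21 (0.0547) or with the block (0.0604; 0.00439 to 0.0696 over the alternatives), nor Rac2 with the block (0.0984; 0.00479 to 0.0984).

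**Figure D5:**
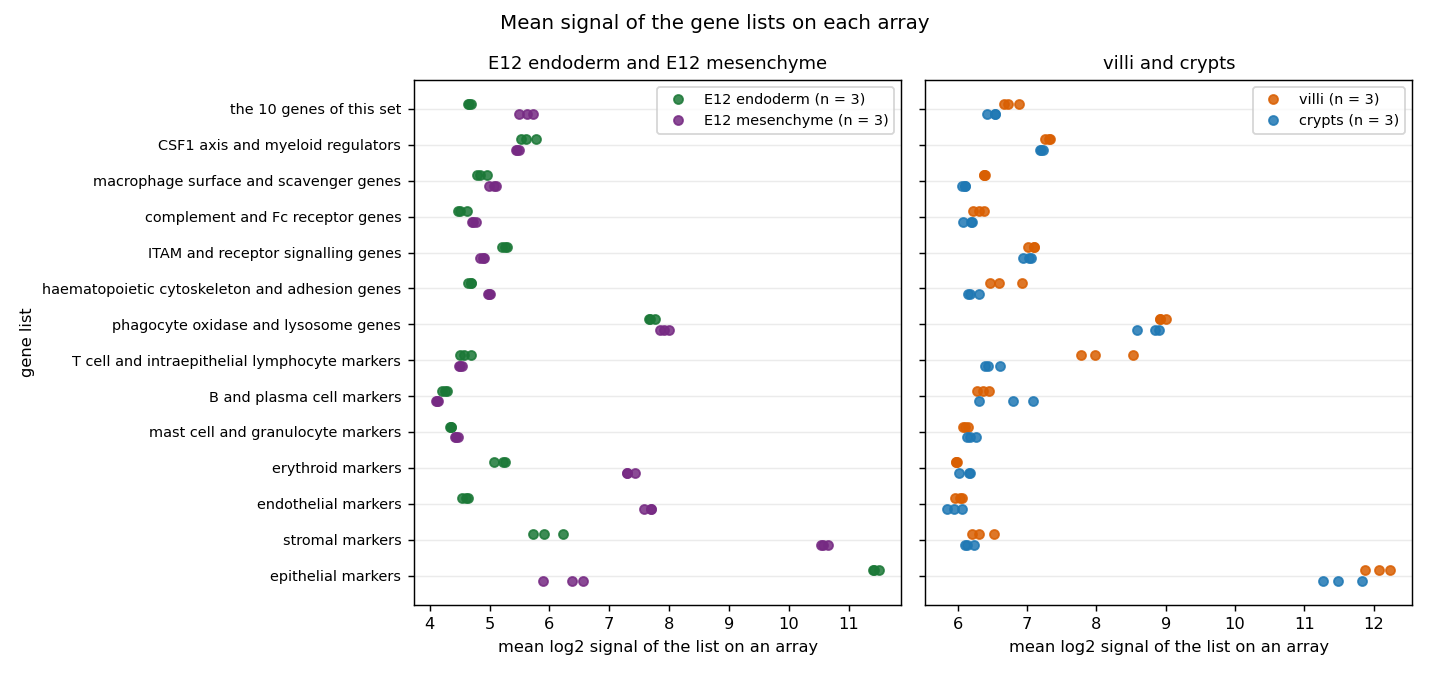
Mean log2 signal on each array (horizontal axis) for each gene list (vertical axis), with E12 endoderm and E12 mesenchyme on the left and villi and crypts on the right. Points are arrays; the means of the 10 macrophage and leukocyte genes do not overlap in either pair of groups, which for villi and crypts does not hold without Ptprc, endothelial, stromal and epithelial markers stand far apart between the E12 layers, and T cell markers stand apart between villi and crypts.

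Epithelial, stromal and endothelial markers differed less between the adult groups. Of 7 epithelial genes, 3 rose in villi, where 16.9% of all genes rose and 15.0% fell. Leaving out each array gave 2 to 4 higher and 0 to 2 lower calls. Epcam was not called with the replicate block (limma adjusted p = 0.0536) or without crypt replicate 12 (0.059) or 21 (0.0594). Of 6 stromal genes, Thy1 (0.71) and Vim (0.65) rose, and their adjusted p ran from 0.0235 to 0.224 and from 0.0144 to 0.395 over the alternatives. Both lost the call with the replicate block, when villus replicate V275 was left out and when any 1 crypt array was left out, and Vim also without villus replicate 41 and without the filter on dim genes. The collagen genes Col1a1 (-0.050, limma adjusted p = 0.809) and Col1a2 (0.035, 0.865) were not called, and the stromal list had a median of 0.062. Of 4 endothelial genes, 0 were called by limma (1 at an unadjusted p under 0.05), and Esam, a junction gene of vessels, had the largest difference (-0.42, adjusted p = 0.0774). It passed without crypt replicate 41 (0.029; 0.029 to 0.356 over the alternatives).

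Levels across the 8 arrays of the first table can be set side by side, though the E12 layers have 1 array each there and were not tested against the adult groups. Ptprc spanned 8.14 to 8.60 in villi and 5.98 to 7.34 in crypts, against 5.07 in E12 endoderm and 5.42 in E12 mesenchyme, so that every adult array was above both layers. Laptm5 1417721_s_at also had every adult array, from 7.30 to 8.25, above E12 endoderm (6.80) and E12 mesenchyme (7.23). Csf1r 1419872_at in E12 mesenchyme (8.74) lay within the crypt range of 8.44 to 8.92 and above the villus range of 7.94 to 8.25, with E12 endoderm (7.77) below all adult arrays. C1qa was highest in E12 mesenchyme (6.83), above its adult range of 6.33 to 6.70. C1qb 1417063_at was likewise highest in E12 mesenchyme (6.09), the 1 array of the table where it rose above background. The order of the groups thus differed from member to member, and also between probe sets of a member. Csf1r 1419873_s_at in E12 mesenchyme (6.60) was above its crypt range of 6.36 to 6.53. Csf1r 1423593_a_at in E12 mesenchyme (6.81) was below its crypt range of 6.83 to 7.02.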

How the data were processed

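The deposited values are log2 signals that the authors made with RMA, per the submitters' processing notes; the sources used here name neither its version nor a genome build. The tables come from 2 platforms, so tests stayed within a table. Probe sets were named through the platforms' gene annotation, and 0 symbols needed updating through RefSeq. At most 670 of 22690 values were identical in a pair of arrays.

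Each gene was represented by its brightest probe set on average in a fit. Genes that exceeded the table's 30th percentile in at least 3 arrays were tested with limma 3.58.1 under R 4.3.3 (lmFit, then eBayes). Benjamini-Hochberg adjustment was applied at a threshold of 0.05. The arrays' number limits precision. On simulated data, 98% of 2-fold changes and 100% of 4-fold ones were recovered between E12 layers (9442 genes, 5.71% of calls false). For villi against crypts it recovered 76% and 100% (9962 genes, 6.88% of calls false). The simulated noise was normal and independent between arrays and genes, and far fewer genes were changed than were called in the data. These shares therefore need not hold for the real tests. Promoters were searched with Python 3.11.15. The planned permutation test of Ptprc minus Csf1r is not reported, since the values of these genes fix its outcome.

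The members and lists were chosen with earlier results of these data known. Named genes were all members, the 2 largest called differences of each list (otherwise the largest difference), tissue markers and the 5 nearest profiles of Csf1r and Ptprc. The p-values measure only the spread between these samples, which for the E12 layers are pools of 10 to 12 fetuses. No label says whether a crypt and a villus sample of the same number share a mouse. Same-numbered E12 samples have titles with a shared number, and their deviations from the group means correlated at 0.21, 0.23 and 0.11 for replicates 2, 3 and 4, above the criterion of 0.1 (endoderm 3 with mesenchyme 4 also, at 0.13). The alternatives were quantile normalization, no dim filter, other choices of probe set, another prior, a replicate block, all 8 arrays in 1 fit and leaving out each array. Fits of each probe set, and of unfiltered genes under the other alternatives, the mean without Ptprc and the bounds of dim genes were added after seeing the data.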

Additional observations from a re-analysis of the deposited data

How the results depend on the processing

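Between the E12 layers, Csf1r, C1qa, C1qb, Tyrobp, Fcer1g and Mrc1 stayed lower in endoderm and past the threshold under every alternative run, and members called lower numbered 6 to 7 without each array in turn (7 to 9 without the filter). A block on the shared numbers of the E12 samples changed no call of a member. Cd68 turned to 0.020 without E12 endoderm replicate 2. Between villi and crypts, members called higher numbered 1 without the probe set types prone to cross-hybridization, 0 with the replicate block and 1 to 3 when leaving out each array. Members called lower numbered 0 with the replicate block, with a trended, robust prior and by the median probe set of a gene, and 0 to 1 when leaving out each array. Laptm5 turned to 0.25 when its probe sets were taken at their median. The adult numbers 12 and 41 are shared by crypts and villi, with correlations of deviations of 0.16 and 0.069, and a block on them gave Ptprc 1.55, Tyrobp 0.54 and Csf1r -0.59, none called, with 836 genes higher and 424 lower. Over all genes, leaving out 1 adult array gave 1049 to 1604 higher and 925 to 1538 lower, and quantile normalization gave 1522 higher and 1758 lower, against 1687 and 1496. The adult block compared only replicates 12 and 41 of each group, since crypt replicate 21 and villus replicate V275 have no partner. The cause of these shifts was not tested, beyond the fewer samples of that block and of the fits that leave out an array. Of 676 counts of called list genes under alternatives, 67 moved by over 1.5 times. Signals near background limit Cd68, Aif1, C1qb and the E12 endoderm values of C1qa, Mrc1, Tyrobp and Ptprc.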

Other observations

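Phagocyte oxidase and lysosome genes differed in both directions. Of 13 tested between the E12 layers, 4 fell in endoderm and 2 rose, where 25.4% of all genes fell and 27.7% rose. Their median was -0.037. Lipa, a lysosomal gene that rose, was not called by limma without mesenchyme replicate 2 (adjusted p = 0.0619), 3 (0.0544) or 4 (0.0835). Ctss, the cathepsin S gene of antigen-presenting cells, fell by 1.96, and Lyz2, the lysozyme gene of macrophages, by 1.46. Ctss was near background in endoderm (4.35 ± 0.067, SD, n = 3) and passed the filter only through mesenchyme, which fixed its direction. Of 16 tested between villi and crypts, 6 rose in villi and 1 fell, where 16.9% of all genes rose and 15.0% fell. Their median was 0.11, and 2 rose with the replicate block. Ctsb, a cathepsin gene that rose, was not called by limma at the median of its probe sets (adjusted p = 0.326). Ctss rose by 2.25, with 10.57 ± 0.48 in villi and 8.32 ± 1.0 in crypts, whereas Lyz2 stood at 8.64 ± 1.4 in villi and 12.07 ± 0.10 in crypts (SD, n = 3 each), a difference of -3.44 ± 0.59 (limma adjusted p = 0.00443). Lyz2 is closely related to Lyz1, the lysozyme gene of Paneth cells, and which of these genes gave its crypt signal was not tested.

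Other blood cell lists are given with 25.4% of all genes called lower and 27.7% higher between the E12 layers, and 15.0% lower and 16.9% higher between villi and crypts. Kit, a receptor gene of mast cells and of the pacemaker cells of gut muscle, was the 1 called of 2 mast cell and granulocyte genes between the E12 layers (-1.02) and the 1 called of 8 between villi and crypts (-0.94). In the adult comparison Kit was not called without villus replicate V275 (adjusted p = 0.0503) or with the replicate block (0.0649; 0.00516 to 0.0649 over the alternatives). Ms4a1, the B cell gene of CD20, was the 1 called of 4 B and plasma cell genes in villi against crypts (-0.59). It was not called with the block (0.0996), nor when villus replicate 12 (0.079) or crypt replicate 12 (0.0576), 21 (0.0692) or 41 (0.0761) was left out, in a range of 0.0157 to 0.0996 over the alternatives. Of 6 adult erythroid genes, Epb42 fell (-0.67), and its call ended with the block (0.139; 0.00349 to 0.139). The mean of 6 B and plasma cell markers was 6.28 to 6.45 in villi and 6.30 to 7.08 in crypts. Cd3d, a T cell receptor complex gene, was the 1 called of 6 T cell genes between the E12 layers (0.35), and its call ended without mesenchyme replicate 3 (0.0957) or 4 (0.0666) or endoderm replicate 2 (0.05 after rounding; 0.0153 to 0.0957 over the alternatives).

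Profiles over the 8 arrays of the first table were compared by the root mean square distance of log2 values after subtracting each gene's mean, among 10082 genes. The nearest to Csf1r were Notch4 (0.121), Dnase2a (0.127), Dnaja4 (0.145), Rgcc (0.149) and Wdr13 (0.15). The nearest other member, Laptm5, ranked 975th at 0.347. The nearest to Ptprc were Prxl2b (0.224), Maoa (0.225), Ogdh (0.236), Gpd1 (0.248) and Ifi35 (0.282), with Tyrobp as the nearest other member, ranked 1209th at 0.96. None of these 10 neighbours belongs to a list used here.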
